A study of Mus musculus with 8 samples.

Results

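The contacts described here are those made within the 245 kb interval of the mouse X-inactivation center (Xic) that is inverted on the 245kb-INV allele. Members were all pairs of a forward and a reverse 5C fragment whose midpoints both lie at chrX:100378306-100623270 (mm9), leaving out the 5 fragments that overlap the 14 kb deletion in Chic1. This gave 60 fragments and 900 pairs out of 269808 X-chromosomal pairs. A filter on inefficient fragments, applied to the whole map, removed 2 of the 60 and left 840 pairs out of 256000. An inversion of the whole interval keeps every distance inside it, so the question was whether contacts inside it keep their pattern, and where a smaller inversion and 2 deletions change that pattern.

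All 8 libraries came from undifferentiated (day 0) male E14 mouse embryonic stem cells (mESCs; XY, 129/Ola), with 2 libraries for each of 4 alleles. On 245kb-INV the whole interval is inverted, on Linx-51kb-INV a 51 kb part of it around Linx is inverted, and Chic1-4kbD and Chic1-14kbD are deletions of 4 kb and 14 kb within Chic1. The libraries of the first 3 alleles are from 2 clones each, whereas those of Chic1-14kbD are replicates of 1 clone. Every allele therefore carries a rearrangement in or of the interval, and unmodified cells were not analysed here. The titles of the Linx-51kb-INV and Chic1-4kbD libraries share a prefix and those of the other alleles carry others. The labels do not say what the prefix is. If it marks a batch, batch and allele can only be separated between Linx-51kb-INV and Chic1-4kbD.

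Topologically associating domains (TADs) are stretches of chromosome whose sequences contact each other more than their surroundings. The Xic spans the boundary between the TAD of Xist, the noncoding RNA that silences the X chromosome, and that of its antisense repressor Tsix, and the interval makes up most of the Tsix-TAD. The protein CTCF halts cohesin as it extrudes chromatin loops, and loops preferentially join CTCF motifs that point towards each other. In the Tsix-TAD, clusters of CTCF sites lie within Linx and Chic1, and the Linx-51kb-INV and Chic1 alleles were made to alter them.

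The interval was divided in order into a left part (chrX:100378306-100454926, 22 fragments), the Linx part that Linx-51kb-INV inverts (chrX:100454927-100496034, 9 fragments), a middle part (chrX:100505553-100565597, 11 fragments) and a right part (chrX:100583703-100623270, 18 fragments). The left part holds Nap1l2, a nucleosome assembly factor gene, and much of 4930519F16Rik, an annotated gene that runs leftwards through the Linx part from its start in the middle part. The middle part also holds Cdx4, a caudal-type homeobox transcription factor gene, and the beginning of Chic1, which encodes a cysteine-rich hydrophobic protein. The end of Chic1 and Tsx, a testis-expressed gene, lie in the right part. For a finer view the interval was cut into 10 tiles of 25 kb, which pair in 55 ways. Tile 1 holds Nap1l2, tiles 4 and 5 most of the Linx part, tile 6 Cdx4, tiles 7 to 9 Chic1 and tile 10 Tsx.

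Since the alleles were designed around CTCF sites, the sequence was searched on both strands for the 14-base CTCF consensus with at most 1 mismatch. There were 12 matches in the interval, 3 of them without a mismatch, against 145 in the mapped region. A match was present in 16.9% of the 65 fragments in the interval, the deleted ones included, and in 8.37% of all 1039 fragments. Per 100 kb of sequence, there were 4.90 matches in the interval and 3.16 in the mapped region. The 8 matches in the Linx, Chic1 and right parts are printed 5′ to 3′ along the strand of the match, with the matched letters in capitals, because they show which way the motifs point on either side of the rearrangements.
Linx, chrX:100455385-100455414, + strand: ccaggtgaCCACTAGATGGCGGtatagtat
Linx, chrX:100469872-100469901, + strand: acttcaggCCACCAGGTGGCAGttttgtac
Linx, chrX:100478949-100478978, + strand: cctgcagaCCAGAAGAGGGCACccgatctc
Chic1, chrX:100567166-100567195, - strand: cctgtaggCCAGAAGAGGGCACcagatctc
Chic1, chrX:100569796-100569825, - strand: cctgtgggCCAGAAGAGGGCACcagaaccc
right part, chrX:100602045-100602074, + strand: cccatcacCCACCAGGTGGCTCatagccag
right part, chrX:100603781-100603810, - strand: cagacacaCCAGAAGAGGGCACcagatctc
right part, chrX:100609376-100609405, - strand: gttgggaaCCAGTAGATGGGAGgtgagacc

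All 3 matches in the Linx part lie in introns of 4930519F16Rik and point to the right, whereas both in Chic1 are intronic and point to the left. The study describes 3 CTCF sites in Chic1, all removed on Chic1-14kbD and not all on Chic1-4kbD, so this search did not find every one. The 3 matches in the right part are intergenic, and 4 of the 12 share the same 14 letters. Linx-51kb-INV turns the Linx matches alone. 245kb-INV turns all 12 together, so that they keep their orientation relative to each other but not to sequences outside. A match to the consensus is a description of the letters and does not show that CTCF was bound there.

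Deposited counts totalled 1614282 to 21046109 per library, and the second Chic1-14kbD library was the shallowest. Between 89.9% and 99.0% of the 840 pairs had a count, and the median count per pair was 26 in the shallowest library and 114.5 to 392 in the others. The alleles were checked in the counts. The fragment FOR_546 in Chic1 had 26.6 and 36.5 counts per 1000000 X-chromosomal counts (CPM) in the Chic1-14kbD libraries and 292.7 and 328.5 in Chic1-4kbD, against 2173 to 2368 in the other 4. The neighboring fragments FOR_519 and REV_518, at the left end of the Linx inversion, had 45.5 and 34.3 CPM with each other in Linx-51kb-INV and 346.3 to 726.5 in the other alleles. FOR_519 made 625.6 and 397.9 CPM with REV_531, in the middle part, in Linx-51kb-INV and 11.4 to 40.3 in the other alleles. The left end was itself placed with counts of neighboring fragments, so these values do not check its position.

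In 245kb-INV, tile 1 made 1681 and 1932 CPM with the 25 kb to the right of the interval, where the other 6 libraries had 473.5 to 580.8, and tile 10 made 755.3 and 788.2 CPM with the 25 kb to the left, where the others had 26.2 to 83.3. These values leave out the fragments that hold a breakpoint. 2 members hold one, REV_518 (chrX:100453762-100454926) at the left end of the Linx inversion and FOR_573 (chrX:100618973-100623270) at the right end of the 245 kb inversion. FOR_573 made 230.5 and 231.6 CPM with the reverse fragments of tile 1 in the 245kb-INV libraries and 2.67 to 9.46 CPM in the others. On the inverted chromosome a part of this fragment is joined to sequence next to tile 1. Its distances inside the interval are then not those of the reference, and calls that depend on it are given with and without it. The sums over the interval, the correlations and the median differences below include it.

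For every library, an expected count was read for each pair off the decline of its own counts with distance, in positions corrected for the rearrangement, so that a log2 observed over expected of 0 is the average of the map at that distance. Summed over all 840 pairs, the log2 observed over expected was 0.48 ± 0.03 (SD, n = 2) in 245kb-INV, 0.42 ± 0.05 in Linx-51kb-INV, 0.43 ± 0.04 in Chic1-4kbD and 0.39 ± 0.02 in Chic1-14kbD. The interval as a whole was thus contacting itself more than the distance average on all 4 alleles. In none of the 6 comparisons between alleles did the sum pass the edgeR test. The largest log2 difference was that of Chic1-14kbD minus 245kb-INV, at -0.10 ± 0.04 (SE; adjusted p = 0.282), and the second, 245kb-INV minus the mean of the other 3 alleles, was 0.07 ± 0.03 (adjusted p = 0.661). These 2 stood at an unadjusted p of 0.0349 and 0.0475, the other 4 had an unadjusted p above the threshold, and DESeq2 called none of the 6.

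The pattern within this sum differed between alleles. Across the 55 tile pairs, the log2 observed over expected values of the 2 libraries of an allele correlated with Pearson's r of 0.87 to 0.93. Between 245kb-INV and Linx-51kb-INV libraries r was 0.40 to 0.47, between 245kb-INV and Chic1-4kbD 0.47 to 0.59, and between 245kb-INV and Chic1-14kbD 0.18 to 0.33. The deletion alleles resembled each other, with r of 0.82 to 0.88. Linx-51kb-INV had r of 0.32 to 0.38 with Chic1-4kbD and 0.12 to 0.20 with Chic1-14kbD. These coefficients describe tile pairs that share fragments, and all libraries share the same primers.

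The size of the differences was described in the same way. The median absolute log2 difference over the 55 tile pairs was 0.16 to 0.17 between the 2 libraries of an allele, and 0.33 to 0.79 between a 245kb-INV library and a library of another allele. Over 1490 tile pairs of the same span outside the interval, it was 0.20 to 0.24 within alleles and 0.21 to 0.38 between 245kb-INV and the others.

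**Figure D1:**
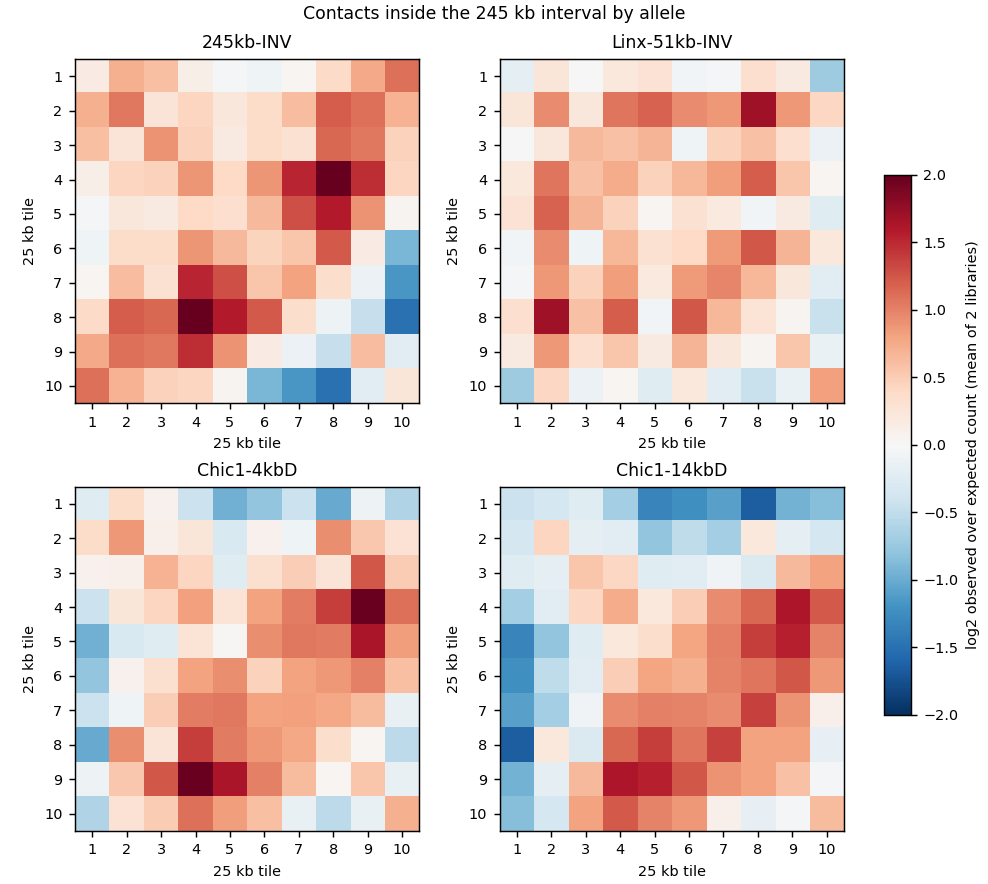
Contacts between the 10 tiles of 25 kb inside the interval on the 4 alleles, in the order of the reference sequence. The color is the log2 observed over expected count, mean of 2 libraries, with the scale ending at -2 and 2. The strongest tile pair is tile 4 with tile 8 on 245kb-INV (2.01), tile 2 with tile 8 on Linx-51kb-INV (1.70), and tile 4 with tile 9 on Chic1-4kbD (1.98) and Chic1-14kbD (1.61).

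To ask whether the folding inside survived the 245 kb inversion, 245kb-INV was compared with the mean of the other 3 alleles. Each of these is itself edited inside the interval, and the Chic1 deletions lie between the middle and the right part. The comparison alone therefore cannot tell a change on 245kb-INV from changes on the other alleles. On 245kb-INV, the part with Cdx4 and the start of Chic1 contacted the part with Tsx less, whereas the left part with Nap1l2 contacted itself, the middle part and the right part more. Of 10 segment pairs, 4 passed the test, 3 higher and 1 lower, and of the 55 tile pairs 10 did, 5 in each direction. In the whole map 0.604% of 11912 features were called in this comparison, 0.437% higher and 0.168% lower, and 0.0671% of the 1490 tile pairs of like span outside the interval. The median absolute log2 difference was 0.43 over the 55 tile pairs and 0.14 over those 1490.

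The lower segment pair was the middle with the right part. Its log2 observed over expected was -0.34 and -0.49 in the 245kb-INV libraries, 0.24 and 0.14 in Linx-51kb-INV, 0.38 and 0.46 in Chic1-4kbD and 0.74 and 0.83 in Chic1-14kbD. The 245kb-INV libraries were the only ones below the distance average, and the alleles did not overlap. The log2 difference was -0.88 ± 0.09 (adjusted p = 0.000241), that is 1.84-fold lower. This call held under every alternative that was run, including leaving out each library. Its size includes the alleles with a deletion within Chic1, which were the highest. Linx-51kb-INV, the only other allele without such a deletion, was higher than 245kb-INV by 0.61 ± 0.10 (adjusted p = 0.0449). That smaller difference did not pass without the breakpoint fragments (adjusted p = 0.0735), nor under further alternatives given below.

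Within the contacts of the middle with the right part, the Cdx4 tile with the Tsx tile (tile 6 with tile 10) differed most from the mean of the other alleles. Its log2 observed over expected was -1.02 and -0.80 in 245kb-INV, 0.09 and 0.33 in Linx-51kb-INV, 0.68 and 0.51 in Chic1-4kbD and 0.70 and 1.03 in Chic1-14kbD. In counts not corrected for distance, this was 5.52 and 6.34 CPM per pair in 245kb-INV and 10.2 to 26.3 in the other libraries. The log2 difference was -1.47 ± 0.17 (adjusted p = 0.00119), or 2.76-fold lower, and it was -1.43 without the breakpoint fragments (adjusted p = 0.00223).

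The 4 other tile pairs that were lower connect the same parts or lie at the right end. Tile 6 with tile 9 fell by 0.81 ± 0.13, tile 7 with tile 9 by 0.70 ± 0.13, tile 8 with tile 10 by 1.13 ± 0.22 and tile 10 with itself by 0.47 ± 0.09 on the log2 scale. Tile 10 with itself and tile 8 with tile 10 no longer passed without the breakpoint fragments (adjusted p = 0.0772 and 0.0748). Neither of these passed against library size, in which total counts replace the distance decay as the reference (0.562 and 0.0540), nor did tile 7 with tile 9 (0.0745). For tile 10 with itself the log2 difference was 0.05 once pairs closer than 10 kb were left out, so that its direction rests on close pairs.

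Contacts of the left with the right part were higher on 245kb-INV. The log2 observed over expected was 0.96 and 0.88 in 245kb-INV, 0.29 and 0.14 in Linx-51kb-INV, 0.45 and 0.54 in Chic1-4kbD and 0.04 and 0.03 in Chic1-14kbD, with no overlap. The log2 difference was 0.67 ± 0.08 (adjusted p = 0.00143) and 0.56 without the breakpoint fragments (adjusted p = 0.0112). The left part with itself was also higher, by 0.38 ± 0.05 (adjusted p = 0.00481), and the left with the middle part by 0.53 ± 0.09 (adjusted p = 0.0236). In the latter, 245kb-INV was at 0.42 and 0.69, and the first of these libraries lay below both of Linx-51kb-INV, at 0.54 and 0.44. Left with middle was 0.50 without the breakpoint fragments and then no longer passed (adjusted p = 0.0613), nor did it without 245kb-INV 2 (adjusted p = 0.278), without either Chic1-4kbD library (0.114 and 0.0882), without either Linx-51kb-INV library (0.0539 and 0.0599) or without Chic1-14kbD 2 (0.0537), and left with itself not without 245kb-INV 2 (0.0652). With library size as the reference, none of the 3 passed, with log2 differences of 0.64 for left with right (adjusted p = 0.0744), 0.40 for left with itself (0.358) and 0.57 for left with middle (0.160).

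The 2 ends of the interval, tile 1 with Nap1l2 and tile 10 with Tsx, showed the largest difference of all. Their log2 observed over expected was 1.09 and 1.12 in 245kb-INV, -0.69 and -0.73 in Linx-51kb-INV, -0.49 and -0.71 in Chic1-4kbD and -0.90 and -0.79 in Chic1-14kbD. The log2 difference was 1.82 ± 0.14 (adjusted p = 3.18e-05) with FOR_573 and 0.84 without the breakpoint fragments (adjusted p = 0.0433). The larger part of the log2 difference thus rested on 1 fragment whose position changes on the inverted chromosome. The other forward fragments of tile 10 made 130 and 138.3 CPM with the reverse fragments of tile 1 in 245kb-INV, and 41.3 to 66.2 CPM in the other 6 libraries. These are 15 of the 35 pairs of fragments in this tile pair, and FOR_573 makes up 5 more. In the remaining pairs, of reverse fragments of tile 10 with forward fragments of tile 1, CPM overlapped between 245kb-INV and the other alleles.

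**Figure D2:**
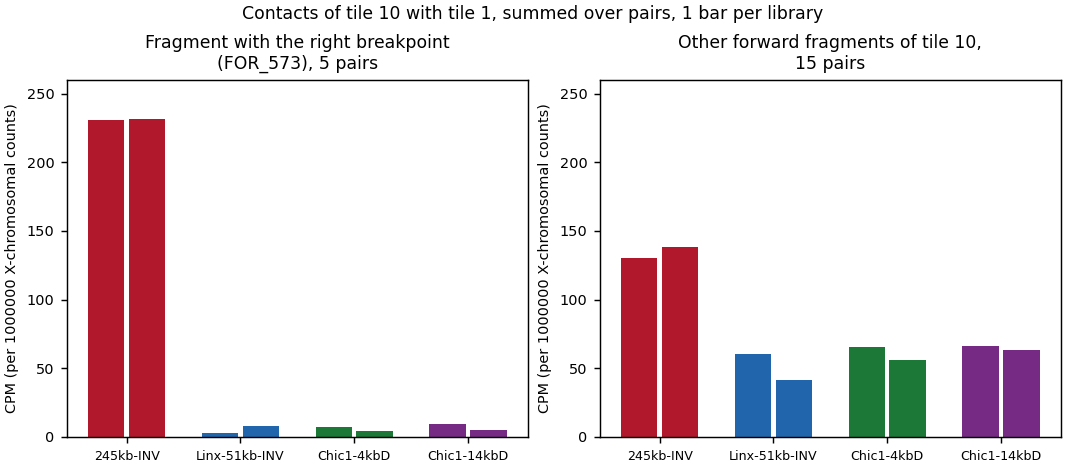
Contacts of the forward fragments of tile 10 with the reverse fragments of tile 1, at the ends of the interval, in CPM, with 1 bar per library. Pairs of reverse fragments of tile 10 with forward fragments of tile 1 are not shown. Left, the fragment that holds the right breakpoint of the 245 kb inversion, at 230.5 and 231.6 on 245kb-INV and at most 9.46 elsewhere. Right, the other forward fragments of tile 10, at 130 and 138.3 on 245kb-INV and at most 66.2 elsewhere.

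Tile 1 was also higher with tile 9, which holds the end of Chic1. The log2 observed over expected of this pair was 0.83 and 0.68 in 245kb-INV, and -1.06 to 0.37 in the other libraries. It does not involve a breakpoint fragment, and the log2 difference was 1.03 ± 0.15 (adjusted p = 0.00548). The call held under every alternative that kept the tile grid. The remaining higher pairs were tile 1 with itself (0.44 ± 0.07), tile 1 with tile 3 (0.65 ± 0.11) and tile 4 with tile 8 (0.77 ± 0.14), none of which passed against library size (adjusted p = 0.326, 0.0630 and 0.0927). Tile 4 with tile 8 joins the Linx part to the beginning of Chic1, and was above the distance average on every allele, at 1.86 and 2.16 in 245kb-INV and 1.12 to 1.47 elsewhere.

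The count of 10 tile pairs depended on single libraries. It was 4 without 245kb-INV 2, without Chic1-4kbD 1 or without Chic1-4kbD 2, 5 without Linx-51kb-INV 2, 6 without Linx-51kb-INV 1 or without Chic1-14kbD 2, and 7 without 245kb-INV 1 or without Chic1-14kbD 1. The 4 segment pairs became 2 without 245kb-INV 2. Of the 10 tile pairs, tile 1 with tile 10, tile 1 with tile 9 and tile 6 with tile 10 passed under every alternative that kept the tile grid. Without the breakpoint fragments, 8 tile pairs and 3 segment pairs were called. When library size was the reference, 5 tile pairs and 1 segment pair were called, and DESeq2 called 20 tile pairs. No share of all features was computed for these alternatives.

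**Figure D3:**
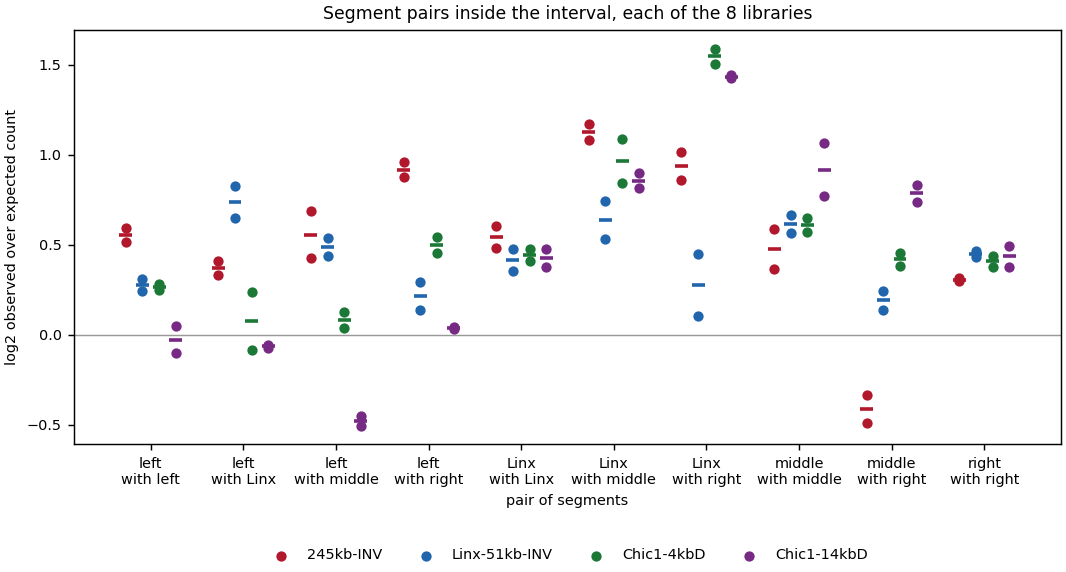
Log2 observed over expected count of the 10 segment pairs in each of the 8 libraries, with a line at the mean of each allele. The middle with the right part is at -0.34 and -0.49 on 245kb-INV and at 0.14 to 0.83 on the other alleles, and the Linx with the right part is at 0.45 and 0.10 on Linx-51kb-INV and at 0.86 to 1.59 on the others.

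Linx-51kb-INV was first compared with Chic1-4kbD, since the titles of these 4 libraries share a prefix. Chic1-4kbD is itself edited in Chic1, so this comparison alone cannot tell the 51 kb inversion from that deletion. On Linx-51kb-INV, the inverted Linx part contacted the right part, with the end of Chic1 and Tsx, less. The log2 observed over expected of the Linx with the right part was 0.45 and 0.10 in Linx-51kb-INV and 1.59 and 1.51 in Chic1-4kbD, and in the alleles not in this comparison 1.02 and 0.86 in 245kb-INV and 1.44 and 1.43 in Chic1-14kbD. The log2 difference from Chic1-4kbD was -1.26 ± 0.13 (adjusted p = 0.00153), or 2.40-fold lower. It was the 1 segment pair of 10 that passed, where 0.0504% of all features were called in this comparison, and none of the 1490 tile pairs of like span outside the interval. Leaving out either Chic1-4kbD library, which leaves 1 library assumed to vary like the others, raised the adjusted p to 0.0596 and 0.0523, with log2 differences of -1.22 and -1.30.

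The same contacts made up both tile pairs called. Tile 5 with tile 9 was at 0.17 and 0.20 in Linx-51kb-INV and at 1.58 and 1.68 in Chic1-4kbD, a log2 difference of -1.44 ± 0.15 (adjusted p = 0.00153). Tile 4 with tile 9 was at 0.84 and 0.26 against 2.02 and 1.94, a log2 difference of -1.40 ± 0.18 (adjusted p = 0.00898). In CPM per pair, tile 5 with tile 9 was at 8.72 and 8.84 in Linx-51kb-INV and 27.8 and 31.3 in Chic1-4kbD. None of the 55 tile pairs was called without either Chic1-4kbD library, and 1 was called without Linx-51kb-INV 2.

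Toward the other side, the inverted Linx part contacted the left part at a log2 observed over expected of 0.82 and 0.65 in Linx-51kb-INV, against 0.24 and -0.09 in Chic1-4kbD. The groups did not overlap, but the log2 difference of 0.65 ± 0.11 did not pass the test (adjusted p = 0.0921). Without the breakpoint fragments, of which REV_518 lies in the left part, it was 0.81 and passed (adjusted p = 0.0377). In CPM per pair, the left with the Linx part was at 25.1 and 21.2 in Linx-51kb-INV and 23.8 and 19.0 in Chic1-4kbD. These counts overlapped, so that the higher ratio rested mainly on lower expected counts in the corrected positions. Contacts within the inverted part itself did not pass, with a log2 difference of -0.03 ± 0.09, and neither did those within the left (0.01 ± 0.07), middle (0.01 ± 0.11) and right parts (0.04 ± 0.06).

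Against 245kb-INV, Linx-51kb-INV had 2 of 55 tile pairs and 2 of 10 segment pairs called, where 0.0923% of all features were, and none of the 1490 tile pairs of like span outside. Contacts of the left with the right part were lower by 0.70 ± 0.10 (adjusted p = 0.0213) and those of the middle with the right part higher by 0.61 ± 0.10 (adjusted p = 0.0449). Both segment pairs were also called for 245kb-INV against the mean of the other alleles. Neither passed without the breakpoint fragments (adjusted p = 0.134 and 0.0735) or without either library of Linx-51kb-INV or of Chic1-4kbD, and no segment pair was then called. Nor did they with library size as the reference (0.0721 and 0.527) or with only these 2 alleles in the fit (0.251 and 0.454). Without 245kb-INV 2 or either library of Chic1-14kbD, 1 segment pair was called. The Linx with the right part differed by -0.66 ± 0.12 (adjusted p = 0.0785).

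The tile pair that did not depend on the ends was tile 5 with tile 8, which joins the Linx part to Chic1. It was at 0.04 and -0.16 in Linx-51kb-INV and at 1.60 and 1.57 in 245kb-INV, with a log2 difference of -1.64 ± 0.24 (adjusted p = 0.0213, and 0.204 with only these 2 alleles in the fit). It was at 1.25 and 0.84 in Chic1-4kbD and 1.14 and 1.62 in Chic1-14kbD, so that the Linx-51kb-INV libraries were the lowest. Only 6 pairs of fragments make up this tile pair. Tile 1 with tile 10, the other call, differed by -1.81 ± 0.19 and by -0.83 without the breakpoint fragments (adjusted p = 0.235). Tile 5 with tile 8 did not pass without 245kb-INV 2 or without either library of Linx-51kb-INV or Chic1-4kbD (adjusted p = 0.0522 to 0.195). No tile pair was called without Linx-51kb-INV 2, and 1 was without either Chic1-4kbD library.

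**Figure D4:**
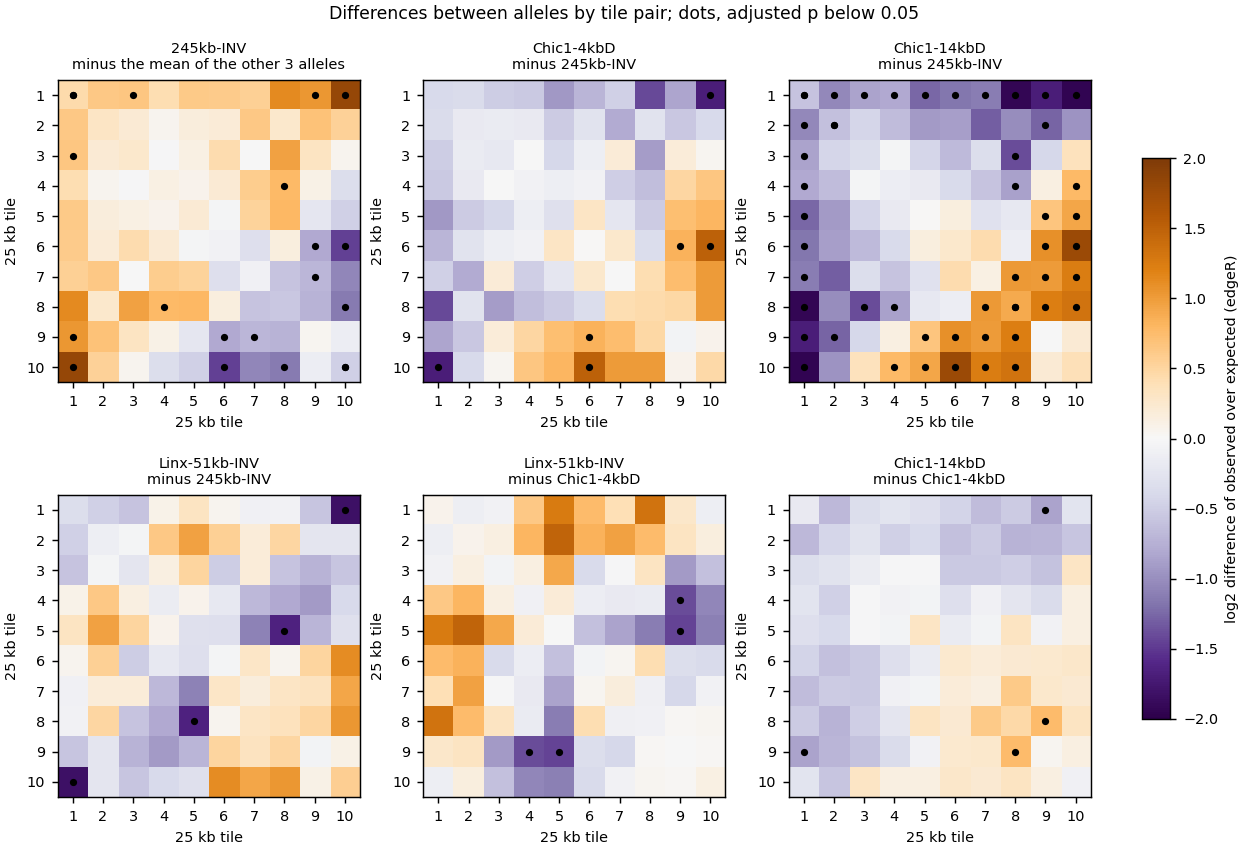
Log2 differences between alleles for the 55 tile pairs in the 6 comparisons, with dots at pairs whose adjusted p is below 0.05. There are 10 dotted pairs for 245kb-INV minus the mean of the other 3 alleles, 25 for Chic1-14kbD minus 245kb-INV, 3 for Chic1-4kbD minus 245kb-INV and 2 in each of the other panels. Comparisons in different panels share libraries.

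The deletions were compared with 245kb-INV, an allele on which the Chic1 sequence is present, and distances were corrected for the bases that the deletions remove. Relative to 245kb-INV, contacts across the deleted sequence were higher on Chic1-14kbD. Those of the left part with itself, the middle and the right part were lower. 245kb-INV had itself differed from the mean of the other alleles in all of these segment pairs, as described above. In them, this comparison alone cannot tell a change on the deletion allele from one on 245kb-INV. Of 10 segment pairs 6 passed, 3 in each direction, and of the 55 tile pairs 25 did, 11 higher and 14 lower. The background was high here, at 3.53% of all features (0.848% higher and 2.68% lower) and 2.95% of tile pairs of like span outside the interval.

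The middle with the right part, which flank the deletion, differed by 1.20 ± 0.10 (adjusted p = 1.08e-05), or 2.29-fold higher, and this call held under every alternative that was run. The left with the middle part was at -0.45 and -0.50 in Chic1-14kbD and at 0.42 and 0.69 in 245kb-INV, a log2 difference of -1.04 ± 0.12 (adjusted p = 0.000186). The left with the right part differed by -0.88 ± 0.10 and the left part with itself by -0.58 ± 0.07. With library size as the reference, these 2 were -0.59 and -0.39 and did not pass (adjusted p = 0.0580 and 0.179). Smaller differences were called for the Linx with the right part (0.49 ± 0.12, adjusted p = 0.0454) and the middle part with itself (0.44 ± 0.11, adjusted p = 0.0372). The first had an adjusted p of 0.0633 without the breakpoint fragments. The second was 0.29 once pairs closer than 10 kb were left out (adjusted p = 0.303). Neither passed with only these 2 alleles in the fit, without either Chic1-4kbD library or without Chic1-14kbD 2. The first also did not pass without 245kb-INV 2 or Chic1-14kbD 1, and the second without 245kb-INV 1 or either Linx-51kb-INV library.

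All 10 tile pairs that involve the Nap1l2 tile were lower on Chic1-14kbD than on 245kb-INV and were called, with log2 differences from -0.59 for tile 1 with itself to -1.95 for tile 1 with tile 10. The latter was -0.98 without the breakpoint fragments (adjusted p = 0.0238). Tile 1 with tile 9 was at -0.83 and -1.06 in Chic1-14kbD against 0.83 and 0.68, a log2 difference of -1.69 ± 0.20. Tile 2 with tile 9 differed by -1.27 ± 0.19 and tile 1 with tile 3 by -0.84 ± 0.15. With library size as the reference, tile 1 with tile 3 and tile 1 with itself did not pass (adjusted p = 0.0643 and 0.201).

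The higher tile pairs lie among tiles 4 to 10 and include every pair of tile 6, 7 or 8 with tile 9 or 10. Tile 6 with tile 10 differed by 1.78 ± 0.20, tile 8 with tile 9 by 1.23 ± 0.19, tile 6 with tile 9 by 1.08 ± 0.15, tile 7 with tile 8 by 1.03 ± 0.19 and tile 7 with tile 9 by 1.00 ± 0.16. In tile 8 with tile 9, whose fragments lie on either side of the deletion, CPM per pair was 91.2 and 101.2 in Chic1-14kbD against 23 and 15.8 in 245kb-INV. Unlike the log2 differences, these CPM are not corrected for the distance that the deletion removes. Tile 7 with tile 8 did not pass without Chic1-14kbD 2 (adjusted p = 0.111). Of the counts in this comparison, the 25 tile pairs became 9 without Chic1-14kbD 2, the shallowest library, and 16 without 245kb-INV 2. The 6 segment pairs became 4 without Chic1-14kbD 2 or either Chic1-4kbD library.

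The 4 kb deletion gave fewer calls against 245kb-INV. In this comparison 1 of 10 segment pairs and 3 of 55 tile pairs passed, where 0.151% of all features did, and none of the 1490 tile pairs of like span outside. The middle with the right part, in which 245kb-INV was below all other alleles, differed by 0.83 ± 0.10 (adjusted p = 0.00334), or 1.78-fold higher. Measured against library size alone it was 0.80 and did not pass (adjusted p = 0.171). Tile 6 with tile 10 differed by 1.50 ± 0.20 (adjusted p = 0.00583, and 0.0653 with only these 2 alleles in the fit) and tile 6 with tile 9 by 0.84 ± 0.15 (adjusted p = 0.0498). Tile 1 with tile 10 differed by -1.70 ± 0.19, and by -0.71 without the breakpoint fragments (adjusted p = 0.461). The Linx with the right part, at 1.59 and 1.51 against 1.02 and 0.86, did not pass (0.61 ± 0.12, adjusted p = 0.113). Tile 6 with tile 9 did not pass without any 1 of the 8 libraries. No tile or segment pair was called without either Chic1-4kbD library, which leaves 1 library of that allele.

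Between the deletions themselves, Chic1-14kbD and Chic1-4kbD, 2 of 55 tile pairs and 3 of 10 segment pairs were called, where 3.82% of all features were, so that the share of tile pairs inside, 3.64%, was near that of the map and of the tile pairs of like span outside, 3.96%. The left part had lower contacts on Chic1-14kbD with itself (-0.29 ± 0.07, adjusted p = 0.0259), with the middle (-0.56 ± 0.12, adjusted p = 0.0181) and with the right part (-0.46 ± 0.10, adjusted p = 0.0238). With library size as the reference these 3 differences were -0.0098, -0.28 and -0.16, and none passed (adjusted p = 0.987, 0.445 and 0.691). Tile 8 with tile 9, next to the deletion, was higher by 0.76 ± 0.19 (adjusted p = 0.0364), and tile 1 with tile 9 lower by 0.85 ± 0.19 on the log2 scale (adjusted p = 0.0248), which did not pass with library size as the reference (0.214). Neither of these tile pairs passed without any 1 of the 4 libraries compared. No segment pair was called without Chic1-14kbD 2 or either Chic1-4kbD library, 1 without Chic1-14kbD 1, and 2 without Linx-51kb-INV 1. The middle with the right part did not pass (0.37 ± 0.10, adjusted p = 0.0626). It did pass at 1.07 against library size (adjusted p = 0.000632) and at 0.74 in reference coordinates (0.000763) and at 0.37 with DESeq2 (0.0141), with only these 2 alleles in the fit (0.0387) or without either 245kb-INV library (0.0409 and 0.0413).

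Contacts within the Linx part and within the right part varied least among the segment pairs. The Linx part with itself ranged from 0.35 to 0.60 across the 8 libraries and the right part with itself from 0.30 to 0.49, and neither passed in any of the 6 comparisons. The largest log2 differences of these segment pairs were -0.13 ± 0.09 for Linx with itself and 0.14 ± 0.06 for the right part with itself, both for Linx-51kb-INV minus 245kb-INV. Inside the right part, tile 10 with itself was nevertheless called lower on 245kb-INV than the mean of the other alleles (-0.47), as described above. By contrast, the Linx with the right part ranged from 0.10 to 1.59 and the middle with the right part from -0.49 to 0.83.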

How the data were processed

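The authors aligned 5C reads with Bowtie2 to all pairs of forward and reverse primers and deposited raw read counts per pair, without normalization and without molecular identifiers. The fragment positions that the authors deposited with the counts are in mm9. Summed over all libraries, a fragment had to reach between 0.1 and 10 times the median count of forward or of reverse fragments. On the X chromosome, 503 of 511 forward and 514 of 528 reverse fragments met this. Expected counts came from each library's distance decay in 40 log-spaced bins, in coordinates corrected for each allele. Counts of 25 kb tile pairs (mean count of at least 50), segment pairs and windows of 10 tiles over the whole X-chromosomal map, 11912 features, entered edgeR 4.0.16 in R 4.3.3, whose quasi-likelihood F-test (glmQLFit, glmQLFTest) gave the p-values. The log of the expected count was the offset, all 8 libraries entered 1 fit, and p-values were adjusted with the Benjamini-Hochberg method over all features at a threshold of 0.05. The standard error was the absolute log2 difference over the square root of F. The test was checked on simulated counts.

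With 2 libraries per allele, p-values rest on the spread within alleles, pooled over all alleles in the fit and moderated over the features of the map. The libraries of an allele are 2 clones or, for Chic1-14kbD, replicates of 1 clone. The text names all segment pairs discussed, the whole interval and, per comparison, up to 5 called tile pairs in each direction with the smallest p. Other pairs and fragments were named after their values were seen. The ends of the Linx inversion and of the 4 kb deletion were read from the study's figures, and the left Linx end was refined with the counts of neighboring fragments. The members, segments and lists were chosen with earlier results of these data known. Alternatives were library size as the reference, reference coordinates, other fragment filters, leaving out the largest pair, close pairs or breakpoint fragments, DESeq2 1.42.0, no minimum count, a shifted grid, only the alleles compared, and leaving out each library. CTCF consensus matches and genes were placed on the mm9 (NCBIM37) sequence and a GENCODE annotation of that build.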

Additional observations from a re-analysis of the deposited data

How the results depend on the processing

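No paired analysis was possible because the labels give no replicate numbers that tie libraries of different alleles. The sum over the interval turned direction with library size as the reference for Chic1-14kbD minus 245kb-INV (0.17, adjusted p = 0.581) and minus Chic1-4kbD (0.31, adjusted p = 0.188), and passed the test for the former without pairs closer than 10 kb (-0.18, adjusted p = 0.0490). In what follows, counts of tile pairs and segment pairs called are in the order 245kb-INV minus the mean of the others, Chic1-4kbD, Chic1-14kbD and Linx-51kb-INV each minus 245kb-INV, and Linx-51kb-INV and Chic1-14kbD each minus Chic1-4kbD, with main counts of 10, 3, 25, 2, 2 and 2 tile pairs and 4, 1, 6, 2, 1 and 3 segment pairs. Shares of all features called were computed for the main setting alone, so counts under other settings have no share beside them. DESeq2 called 20, 13, 34, 15, 13 and 7 tile pairs and 4, 4, 7, 4, 2 and 4 segment pairs. Other settings are named where they moved a count by over 1.5 times.

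With library size as the reference, tile pairs became 5 in the first, 1 in the fifth and 5 in the last comparison, and segment pairs 1 in the first and 0 in the second and the fourth. Without a minimum count, tile pairs became 17, 6, 6 and 4 in the first, the fourth, the fifth and the last, and segment pairs 2 in the second and the fifth. Without the largest pair of each feature, tile pairs became 5, 6, 6 and 1 in the second, the fourth, the fifth and the last, and segment pairs 2, 4, 3 and 1. Without breakpoint fragments, tile pairs became 1 in the second and the fourth, and segment pairs 0 in the fourth and 2 in the fifth. With only the alleles compared, tile pairs became 1, 14, 0 and 1 in the second to the fifth, and segment pairs 0 in the fourth. Reference coordinates gave 7 tile pairs in the fourth, the shifted grid 6 in the last, and leaving out pairs closer than 10 kb 2 segment pairs in the fifth.

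Leaving out 1 library gave 4 to 7, 0 to 2, 9 to 24, 0 to 2, 0 to 2 and 0 to 3 tile pairs, 2 to 4, 0 to 1, 4 to 5, 0 to 2, 0 to 1 and 0 to 4 segment pairs, and log2 differences of the whole interval of 0.05 to 0.09, -0.08 to -0.03, -0.12 to -0.08, -0.11 to -0.03, -0.05 to 0.02 and -0.07 to -0.01. A lone library is then assumed to vary like the other alleles. The positive values in the fifth comparison came without Linx-51kb-INV 2 (0.022) and without Chic1-4kbD 1 (0.013).

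Of the called results, 1 turned direction, tile 10 with itself in the first comparison (0.048 without pairs closer than 10 kb). The other changes of direction were in segment pairs that passed in neither setting. With library size, these were in the third comparison Linx with itself (0.15), in the fourth left with Linx (-0.30) and middle with itself (-0.030), in the fifth Linx with middle (0.023), left with itself (-0.045), middle with itself (-0.053) and right with itself (-0.0046), and in the last Linx with itself (0.34), middle (0.23), right (0.26) and left (0.15). With reference coordinates they were left with Linx in the fourth (-0.095) and Linx with middle in the fifth (0.13). Without the largest pair they were Linx with itself (0.0040), left with itself (-0.025) and middle with itself (-0.0077) in the fifth and Linx with itself (0.11) in the last. Without close pairs they were right with itself in the fourth (-0.0054), and Linx (0.024), left (-0.067) and right (-0.029) with themselves in the fifth. Without breakpoint fragments, left with middle in the fourth was 0.031. The causes were not tested. Leaving out 1 library at a time, the range of log2 differences held both signs for left with middle in the fourth comparison (-0.20 to 0.064), for Linx (-0.090 to 0.032), left (-0.025 to 0.043) and middle with themselves (-0.043 to 0.056) in the fifth, and for Linx with itself (-0.065 to 0.036), middle (-0.23 to 0.016) and left (-0.30 to 0.022) and right with itself (-0.032 to 0.085) in the last. In the shallowest library, the median count per pair was 26, which limits the precision of Chic1-14kbD.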
